A study of Mus musculus with 6 samples.

Results

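Pou2f3 and 9 other genes, most of them tied to tuft cells, were followed in cells of the mouse ovarian surface epithelium sorted by EGFP expressed from the Lgr5 locus. The genes were the class 2 POU factors Pou2f3, Pou2f1 and Pou2f2, the transcription factor Gfi1b, the taste signalling genes Trpm5 and Gnat3, the markers Dclk1 and Avil, the cytokine gene Il25 and the lipoxygenase gene Alox5. Pou2f3 was selected on its measured difference between the sorted populations, one of the largest positive ones. Pou2f1 and Pou2f2 are its relatives of the same POU class, and the others were taken as its partners in tuft cells. Counts over the genes other than Pou2f3 include Pou2f2. Of the 10 genes, 9 had a probe set with that gene as its only symbol in the platform annotation, out of 22180 genes so named. No probe set there carries the name Pou2f1, which is not analysed here. Alox5 had 2 probe sets, and the one with the higher mean was used.

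The EGFP-high and EGFP-low populations each had 3 arrays, all from female mice of 8 to 12 weeks with the genotype Lgr5-eGFP-CreERT2, with cells of 8 mice pooled per array. Both populations therefore carry the same allele and differ by the sort. The submitters call the 3 arrays of a population technical replicates, so spread and p-values describe arrays and not animals. Small amounts of RNA were amplified with a NuGEN pico kit before hybridisation, and the arrays, Affymetrix Mouse Gene ST 2.0, read RNA of a whole cell population. Fewer cells of a type and less RNA per cell cannot be told apart in such data.

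POU class 2 factors bind an octamer DNA element through a bipartite POU domain. Pou2f3 (Skn-1a) is required for tuft cells, rare chemosensory epithelial cells of gut, airway and other epithelia, and was first described in epidermis. Tuft cells use the taste pathway, in which a G protein acts on phospholipase C beta 2, the inositol trisphosphate receptor type 3 releases calcium and the cation channel Trpm5 opens. In the gut they release IL-25 and leukotrienes, which act on innate lymphoid cells. Pou2f3 works there with small coactivators of the Pou2af family.

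All values below are log2 expression as deposited, and differences are EGFP-high minus EGFP-low. Array medians were 3.76 to 3.79 in the EGFP-high and 3.81 to 3.85 in the EGFP-low arrays. No detection calls were used, so a low reading cannot be said to be above or below background. The 6 deposited columns hold 4 independent dimensions: high replicate 2 equals the mean of high replicates 1 and 3, to a tolerance of 2e-04 over all probe sets, and low replicate 1 is a combination of other columns. The fit therefore had a term for array sets inferred from these relations, and 2 residual degrees of freedom. By the same relations high replicate 2 lies between high replicates 1 and 3 for every gene, apart from rounding. It adds nothing to a lack of overlap, of a gene named here or in the shares of all genes. Lgr5, the sorted locus, read 8.996, 8.97 and 8.94 in the EGFP-high and 7.84, 7.76 and 8.01 in the EGFP-low arrays, a difference of 1.10 (95% interval 0.62 to 1.57). Its limma adjusted p was 0.751, so the gene sorted on did not itself pass the threshold of 0.05. A second Lgr5 probe set, of lower mean, differed by 1.48 (0.96 to 2.01) in the fit over all probe sets. The 10 surface epithelium markers looked up, among them keratins, Wt1 and Upk3b, had means of 7.44 to 11.36 in EGFP-high and 7.58 to 11.20 in EGFP-low cells, with differences from −0.14 for Lrrn4 to 0.62 for Krt18. Of these markers 9 were above 0, as they were under both other scalings, with a median of 0.18 and 0 past an adjusted p of 0.05, and 6 had EGFP-high arrays above all EGFP-low arrays, where 19.3% of all genes did. Their part in the values of Pou2f3 and Dclk1 was not tested.

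Pou2f3 and Dclk1 were higher on every EGFP-high array than on any EGFP-low array, Gfi1b and Avil were lower, and the taste signalling, cytokine and lipoxygenase genes did not show a difference of that size. The difference of Dclk1 was 0.90, or 1.86-fold. The differences of Trpm5, Gnat3, Il25 and Alox5 lay between −0.16 and −0.02, and those of Pou2f2, Avil and Gfi1b between −0.60 and −0.33. Of the 8 genes other than Pou2f3, 0 passed the limma threshold of an adjusted p of 0.05 in the fit over all genes, and 1 had an unadjusted p under 0.05. That fit called 0.00451% of all genes, a single one, so a count of 0 among 8 genes is near the background. The median of the 8 was −0.15, against 0.02 over all genes. Arrays did not overlap for 1 of the 8 on the higher side and 2 on the lower side, where 19.3% and 13.9% of all genes did so. At or past 1.5-fold were 1 higher gene, Dclk1, and 1 lower gene, Gfi1b, against 2.19% and 2.70% of all genes. Gfi1b was short of that fold with arrays centred on their medians (−0.55) or quantile normalized (−0.58), and without low replicate 2 (−0.41). The unadjusted 95% interval lay above 0 for 1 of the 8 and below 0 for none, against 3.04% and 2.89% of all genes.

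Pou2f3 read 6.52, 6.66 and 6.80 in the EGFP-high arrays, against 5.50, 4.93 and 5.64 in the EGFP-low arrays. Every EGFP-high array lay above every EGFP-low array, and low replicate 2 was the lowest of the 6. Its mean was 6.66 ± 0.14 in EGFP-high and 5.36 ± 0.38 in EGFP-low cells (SD, n = 3 each). Both SDs are bound by the column relations, so neither rests on 3 free arrays. The difference was 1.30, a 2.47-fold higher value, which ranked 4 from the highest of 22180 genes. Because this value chose the gene, it is given as a description with no test. The next genes around it were Apol7e at 1.46 just above and Tceal6 just below, at 1.30 when rounded. Within the inferred array sets the difference was 1.02 in the set of high 1 and low 1, and 1.52 in the set of high 3 with low 2 and low 3 (averaged). In the authors' deposited table the ratio of EGFP-high over EGFP-low is 2.33 for Pou2f3.

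**Figure D1:**
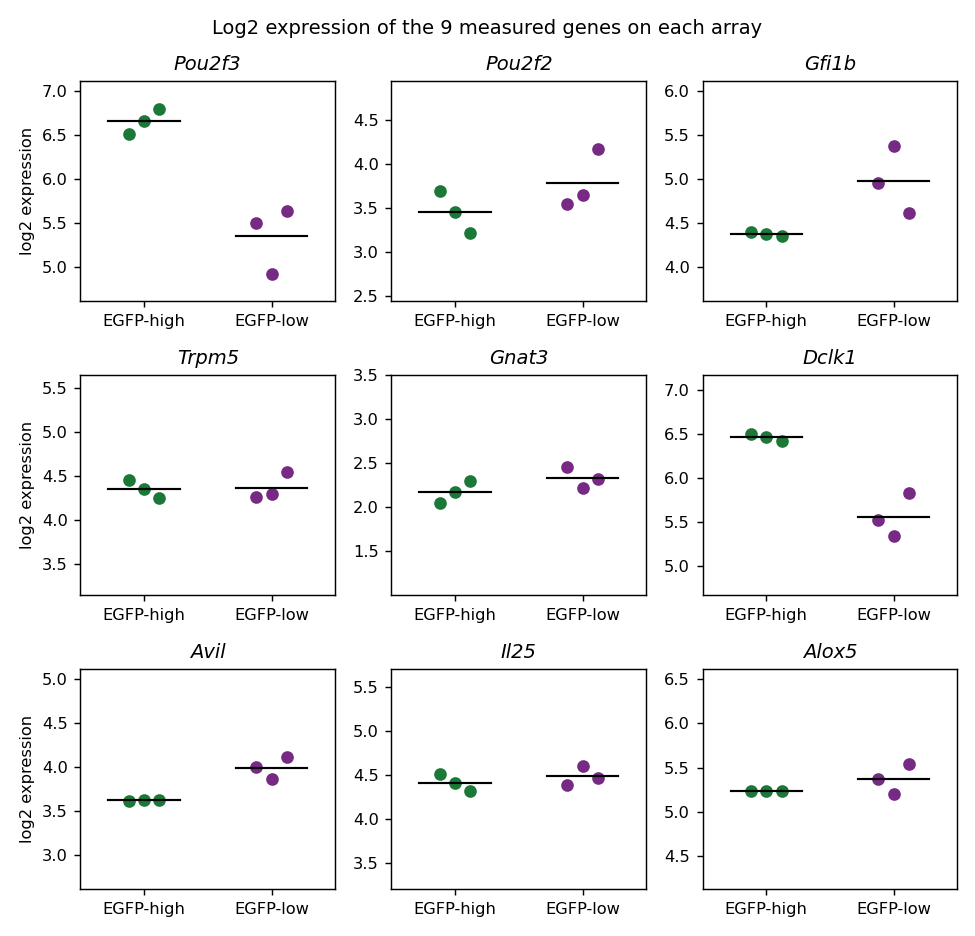
Log2 expression on each array (y axis) of the 9 measured genes, 1 panel a gene, with the 3 EGFP-high arrays at left and the 3 EGFP-low arrays at right. Points are arrays in the order of replicates 1 to 3, bars are group means, and every panel covers the same span. The groups are apart in Pou2f3 and Dclk1, higher in EGFP-high, and in Gfi1b and Avil, lower in EGFP-high.

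The 3 measured genes on each side of Pou2f3 in the RefSeq gene order (GRCm38.p6) were Grik4, Arhgef12 and Tlcd5 on one side and Oaf, D630033O11Rik and Trim29 on the other. Their differences ran from −0.19 for Trim29 to 0.25 for D630033O11Rik, and all 6 intervals spanned 0. The nearest on each side, Tlcd5 and Oaf, differed by −0.12 (95% interval −0.67 to 0.42) and −0.16 (−0.82 to 0.49). The arrays of the populations overlapped in all 6 neighbours.

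Pou2f2 (Oct-2), the class 2 member of B cells and neurons, read 3.70, 3.46 and 3.22 in the EGFP-high and 3.55, 3.65 and 4.17 in the EGFP-low arrays. The groups overlapped, and the difference of −0.33 had an interval of −0.97 to 0.31 (limma adjusted p = 0.892). It was 0.15 within the first array set and −0.69 within the second. Of 12 POU genes of other classes, 9 were measured, from the germ cell factor Pou5f1 to the sensory neuron factor Pou4f1. Of these 0 passed the threshold in either direction and 0 reached 1.5-fold, with a median of −0.05 against 0.02 over all genes. The extremes were Pou6f1 at 0.37 (−0.27 to 1.003) and Pou3f1 at −0.36 (−0.83 to 0.11).

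Coactivators of the POU class 2 factors lay on both sides of 0. Pou2af1 (OCA-B), the B cell coactivator, differed by −0.02 (−0.50 to 0.46). Colca2, now called Pou2af3, read 5.98, 5.96 and 5.94 in the EGFP-high against 5.42, 5.17 and 5.73 in the EGFP-low arrays, and differed by 0.51 (−0.03 to 1.06). The gene 1810046K07Rik, now called Pou2af2, read 3.87, 4.05 and 4.23 in the EGFP-high against 4.65, 4.41 and 4.35 in the EGFP-low arrays, and differed by −0.42 (−0.94 to 0.10). So the EGFP-high arrays lay above the EGFP-low ones for Colca2 and below them for 1810046K07Rik, and neither passed the threshold (limma adjusted p = 0.846 and 0.854).

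Gfi1b, a zinc-finger repressor of erythroid and megakaryocytic cells that also marks tuft cells, read 4.40, 4.37 and 4.35 in the EGFP-high arrays, against 4.95, 5.37 and 4.61 in the EGFP-low arrays. All EGFP-high arrays lay below all EGFP-low arrays. The difference was −0.60 (−1.22 to 0.01), or 1.52-fold lower, with a limma adjusted p of 0.841. Within the array sets it was −0.55 and −0.64. Its relative Gfi1 differed by −0.04, and the demethylase gene Kdm1a, whose product acts with both, by 0.13. Of 4 measured megakaryocyte markers, 2 were above and 2 below 0 and 0 passed the threshold, with a median of 0.02. Pf4 (platelet factor 4) differed by −1.66 (−2.40 to −0.93) and Itga2b by 0.30 (−0.18 to 0.79). The mean over those 4 was 3.61 to 3.62 in the EGFP-high and 3.93 to 3.96 in the EGFP-low arrays. Without Pf4, left out after its value was seen, it was 3.74 to 3.88 in the EGFP-high and 3.60 to 3.86 in the EGFP-low arrays, which overlap. Their part in the Gfi1b value was not tested.

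Trpm5, the calcium-gated cation channel of taste and tuft cells, read 4.46, 4.35 and 4.25 in the EGFP-high and 4.26, 4.29 and 4.55 in the EGFP-low arrays. The groups overlapped throughout. Its difference was −0.02 (−0.51 to 0.48), which turned to 0.04 with arrays centred on their medians and 0.02 after quantile normalization (limma adjusted p = 0.994 as deposited). Gnat3 (gustducin), the taste G protein alpha subunit, read 2.04, 2.17 and 2.30 in the EGFP-high arrays, against 2.46, 2.22 and 2.33 in the EGFP-low arrays. Its difference of −0.16 (−0.66 to 0.33) came with overlapping groups and a limma adjusted p of 0.938.

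The other taste transduction genes lay on both sides of 0. Of 13 listed, 11 were measured, 0 passed the threshold in either direction, and their median was −0.13. Plcb2, the phospholipase of the pathway, read 3.08, 3.34 and 3.60 in the EGFP-high arrays, against 4.57, 4.28 and 4.09 in the EGFP-low arrays. It was lower on every EGFP-high array, by −0.97 (−1.57 to −0.38, limma adjusted p = 0.772). Itpr3, the calcium release channel, read 6.15, 6.07 and 6.002 in the EGFP-high arrays, against 5.42, 5.45 and 5.60 in the EGFP-low arrays. It was higher on every EGFP-high array, by 0.58 (0.11 to 1.05, limma adjusted p = 0.816). The G protein beta subunit gene Gnb3 differed by −0.19, and the taste receptor genes Tas1r1, Tas1r2 and Tas1r3 by 0.18, −0.13 and −0.18, all with intervals that span 0.

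Dclk1, a microtubule-associated kinase used as a tuft cell marker and also expressed in neurons, read 6.50, 6.46 and 6.42 in the EGFP-high arrays, against 5.52, 5.34 and 5.82 in the EGFP-low arrays. No EGFP-low array reached the lowest EGFP-high array. Means were 6.46 ± 0.04 in EGFP-high and 5.56 ± 0.24 in EGFP-low cells (SD, n = 3 each), with both SDs bound by the column relations. The difference of 0.90 had an unadjusted interval of 0.37 to 1.42 and ranked 53 from the highest. Over all genes it did not pass (limma adjusted p = 0.751). With group as the only term limma gave an adjusted p of 0.024 and called 1 of the 8 genes, in a fit that called 6.67% of all genes, 3.90% higher and 2.77% lower, and counts 4 residual degrees of freedom where the columns allow 2. Within the array sets the difference was 0.98 and 0.84, and the authors' deposited table gives a ratio of 1.97.

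Dclk1 is shared with neurons, whose markers were read beside it. Of 6 measured, 0 passed the threshold, Tubb3 was highest at 0.25 (−0.21 to 0.71) and Uchl1 lowest at −0.64 (−1.29 to 0.001), with a median of −0.05. The mean of these 6 was 3.52 to 3.56 in the EGFP-high and 3.68 to 3.72 in the EGFP-low arrays. Uchl1 and Stmn2, at −0.52 (−1.01 to −0.02), differed most. As deposited, 2 of the 6 were above and 4 below 0. The split was 3 and 3 with arrays centred on their medians and 4 and 2 after quantile normalization. Neuroendocrine markers had a median of −0.24 over 5 genes, with 0 called, from Neurod1 at −0.36 to Chga at 0.08. The doublecortin relatives gave 0.53 (−0.01 to 1.07) for Dcx, 0.36 (−0.17 to 0.89) for Dclk3 and −0.07 (−0.53 to 0.38) for Dclk2.

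Avil (advillin), an actin-binding protein of the villin family found in tuft cells and sensory neurons, read 3.62, 3.62 and 3.62 in the EGFP-high arrays, against 3.995, 3.86 and 4.11 in the EGFP-low arrays. The EGFP-high arrays lay below all EGFP-low arrays, unlike those of Dclk1. The difference was −0.37 (−0.84 to 0.10, limma adjusted p = 0.854), with −0.38 and −0.37 within the array sets. Its relative Vil1, the villin of brush border microvilli, differed by 0.06 (−0.42 to 0.53).

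Promoter windows from RefSeq (GRCm38.p6), 250 bases before to 50 after each annotated start, were searched on both strands for the octamer ATGCAAAT and for its first 7 letters, ATGCAAA, which every octamer contains. The windows of 8 of the 10 genes were searched, 11 in all, and not those of Pou2f3 and Il25. The octamer was in 0 of the 11, against 1.74% of all 32851 windows, and the shorter form was in 1 of the 11, that of Avil, against 4.63%. Avil has 2 such matches, where 0.286% of all windows have 2 or more, the first beginning 115 and the other 15 bases before the start. Its window is printed with the matches in capitals, beside both windows of Dclk1, the gene nearest to Pou2f3 in these data among those listed, which hold 0 matches. A match is a run of letters and not a shown binding site, and no binding was measured.
Avil, chr10:127000459-127000758, plus strand: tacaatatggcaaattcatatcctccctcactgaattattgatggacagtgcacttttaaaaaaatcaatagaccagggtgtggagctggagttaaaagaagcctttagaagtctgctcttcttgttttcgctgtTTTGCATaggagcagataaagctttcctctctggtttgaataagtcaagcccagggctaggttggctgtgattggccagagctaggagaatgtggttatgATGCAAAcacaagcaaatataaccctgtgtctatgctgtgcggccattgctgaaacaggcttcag
Dclk1 first start, chr3:55242114-55242413, plus strand: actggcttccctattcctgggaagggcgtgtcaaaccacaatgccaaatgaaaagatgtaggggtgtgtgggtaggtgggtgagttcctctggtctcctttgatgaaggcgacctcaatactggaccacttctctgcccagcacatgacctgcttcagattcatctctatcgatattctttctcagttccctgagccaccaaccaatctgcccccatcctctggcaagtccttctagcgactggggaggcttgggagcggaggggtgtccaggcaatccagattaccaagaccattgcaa
Dclk1 second start, chr3:55461478-55461777, plus strand: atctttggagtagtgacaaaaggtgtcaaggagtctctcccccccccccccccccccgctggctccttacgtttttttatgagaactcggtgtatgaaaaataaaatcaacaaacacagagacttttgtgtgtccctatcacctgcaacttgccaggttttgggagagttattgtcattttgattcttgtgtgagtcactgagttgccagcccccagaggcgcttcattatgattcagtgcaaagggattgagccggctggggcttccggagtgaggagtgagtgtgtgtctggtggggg

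**Figure D2:**
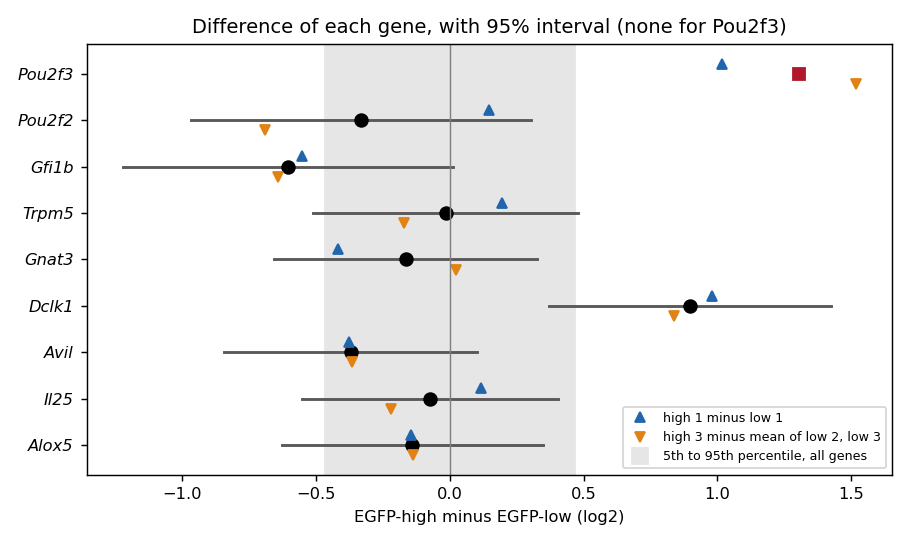
Difference of EGFP-high minus EGFP-low on the log2 scale (x axis) for each gene (rows). Circles are the 8 genes other than Pou2f3 with unadjusted 95% intervals from limma, the square is Pou2f3, shown with no interval since its value chose it, triangles are the contrasts within the inferred array sets, and the grey band runs from the 5th to the 95th percentile of all genes (−0.47 to 0.47). Dclk1 is the circle whose interval lies above 0.

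Il25, the cytokine by which gut tuft cells signal to innate lymphoid cells, read 4.50, 4.41 and 4.31 in the EGFP-high and 4.39, 4.59 and 4.47 in the EGFP-low arrays. The groups overlapped and the difference was −0.07 (−0.55 to 0.40, limma adjusted p = 0.973). Of 14 genes of its circuit 13 were measured, 0 passed the threshold or reached 1.5-fold, and their median was 0.07. The receptor subunit gene Il17rb, which tuft cells themselves carry, differed by −0.01 (−0.52 to 0.49), and the shared subunit gene Il17ra by −0.23. Il4ra, a subunit of the receptor for IL-4 and IL-13, was the highest at 0.43 (−0.08 to 0.94), and Il17b the lowest at −0.33 (−0.81 to 0.14).

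Alox5, the lipoxygenase that starts leukotriene synthesis, read 5.23, 5.23 and 5.23 in the EGFP-high and 5.38, 5.20 and 5.54 in the EGFP-low arrays. Low replicate 2 lay below the EGFP-high arrays and the other two lay above. The difference was −0.14 (−0.63 to 0.35, limma adjusted p = 0.951), and the dimmer probe set gave 0.08 (−0.46 to 0.62) in the fit over all probe sets. Its partner Alox5ap, which presents the substrate, read 3.73, 3.25 and 2.78 in the EGFP-high arrays, against 3.49, 4.65 and 3.76 in the EGFP-low arrays. These groups overlapped, and the difference was −0.71 (−1.67 to 0.24), with 0.24 and −1.43 within the array sets. Ltc4s, the leukotriene C4 synthase, differed by −0.38 (−0.83 to 0.07), and Hpgds, the prostaglandin D synthase of blood cells, by 0.21 (−0.27 to 0.69). The list had a median of −0.38 over 7 measured genes of 8, with 0 called.

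Alox5, Alox5ap and Ltc4s are also genes of myeloid cells, whose markers were read beside them. Of 9 macrophage and leukocyte markers, 8 were below 0, as they were under both other scalings, with a median of −0.56 and 0 past the threshold. Lyz2 differed by −3.77 (−5.26 to −2.28), Tyrobp by −1.81 (−2.59 to −1.02), C1qb by −1.22 (−1.85 to −0.59) and Adgre1 by −0.65 (−1.43 to 0.13), while Cd68 was the highest at 0.07. The mean over the 9 was 3.52 to 3.72 in the EGFP-high and 4.09 to 5.22 in the EGFP-low arrays. Its part in the values of Alox5ap and Ltc4s, and in that of Plcb2, was not tested. B cell markers, which bear on Pou2f2 and Pou2af1, had a median of −0.12 over 6 genes, from Blnk at 0.65 (0.15 to 1.16) to Cd79b at −0.33. Mast cell markers had a median of −0.02 over 7, from Mcpt4 at 0.30 to Cpa3 at −0.26, and 0 of either list passed.

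Other genes known from tuft cells gave no call in the fit with array sets. Of 20 listed, 19 were measured, with a median of 0.05. The adaptors Sh2d6 and Sh2d7 differed by 0.07 (−0.46 to 0.61) and −0.04 (−0.59 to 0.52), and Chat, which makes acetylcholine, by −0.14 (−0.61 to 0.33). Strip2 was the highest at 0.60 (0.06 to 1.15). Cd24a, a surface glycoprotein, was the lowest at −0.65 (−1.24 to −0.06). Both of these were at or past 1.5-fold with arrays that did not overlap, and the limma adjusted p was 0.838 for Strip2 and 0.837 for Cd24a.

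Among the 12 regulators, Spib, an Ets factor of B cells and of some tuft cells, read 2.07, 2.04 and 2.01 in the EGFP-high arrays, against 2.77, 2.75 and 2.88 in the EGFP-low arrays. It was lower on every EGFP-high array, by −0.76 (−1.22 to −0.30, limma adjusted p = 0.772). Ascl2, a Wnt target of stem cells that is needed for some tuft cells, differed by −0.17 (−0.64 to 0.30), and Sox4 by −0.14 (−0.64 to 0.37). The 5 wider tuft cell lists together had 62 measured genes of 67. Of these, 31 were above and 31 below 0, against 11927 and 10253 of all genes, a split that became 35 and 27 with arrays centred on their medians, against 13802 and 8378 of all genes, and 33 and 29 after quantile normalization, against 12510 and 9670. At or past 1.5-fold, 1 was higher and 4 were lower, where all genes gave 2.19% higher and 2.70% lower. Arrays did not overlap for 8 higher and 13 lower genes, where all genes gave 19.3% and 13.9%. With group as the only term limma called 1 of the 62 higher, Itpr3 (adjusted p = 0.023), and 3 lower, Spib (0.015), Ltc4s (0.028) and Plcb2 (0.036), where that fit called 3.90% and 2.77% of all genes.

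**Figure D3:**
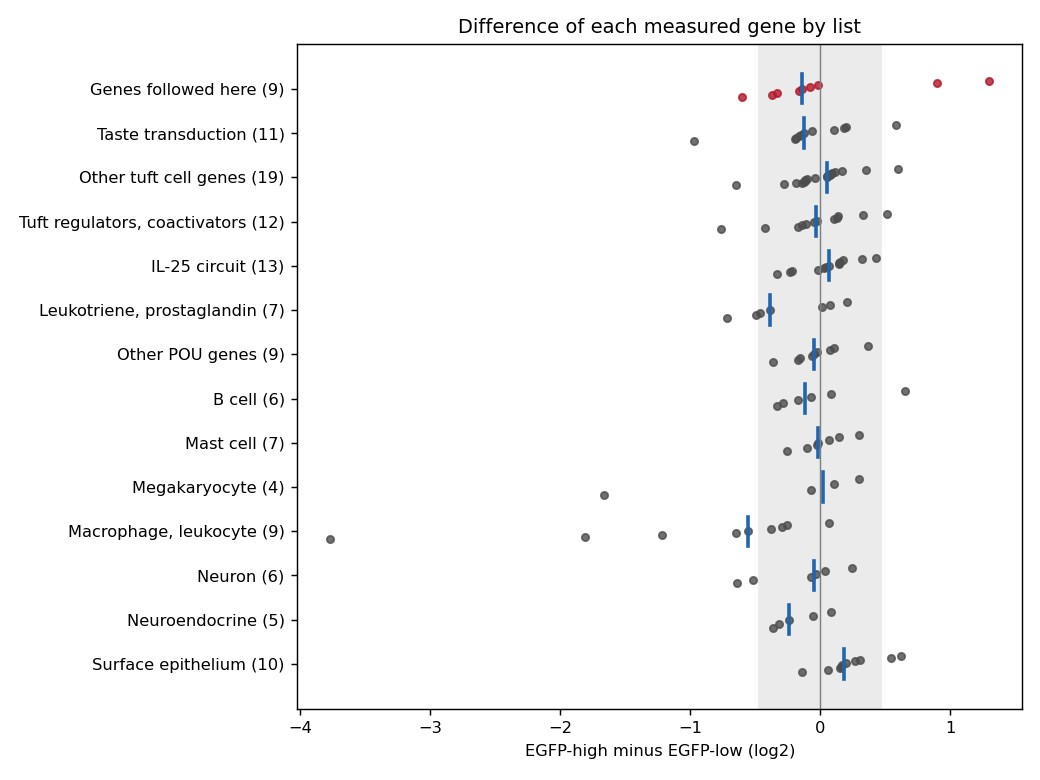
Difference of EGFP-high minus EGFP-low on the log2 scale (x axis) of each measured gene in 14 lists (rows, number of genes in brackets). Points are genes, blue bars are list medians, red marks the genes followed here, and the grey band runs from the 5th to the 95th percentile of all genes. The tuft cell lists lie mostly within the band, with genes outside it on both sides. Of these lists and the genes followed here, Pou2f3 (1.30) and Dclk1 (0.90) lie farthest to the right. Plcb2 (−0.97) and Spib (−0.76) lie farthest to the left.

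The likeness of array profiles was taken as the Euclidean distance over the 6 arrays, each gene centred on its own mean, so that 0 is an identical profile. The 5 genes nearest to Pou2f3 were Tceal6 (distance 0.18), the ubiquitin-like protein protease gene Usp18 (0.34), the heparan sulfate enzyme gene Ndst4 (0.40), the predicted gene Gm12059 (0.45) and Shcbp1 (0.46). Dclk1 ranked 29 among all other genes, at 0.63. The remaining 7 measured genes were at 1.71 to 2.58, with Gfi1b the farthest of them. The distance uses the same arrays and the same contrast that chose Pou2f3, so it describes these columns and supports nothing further.

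**Figure D4:**
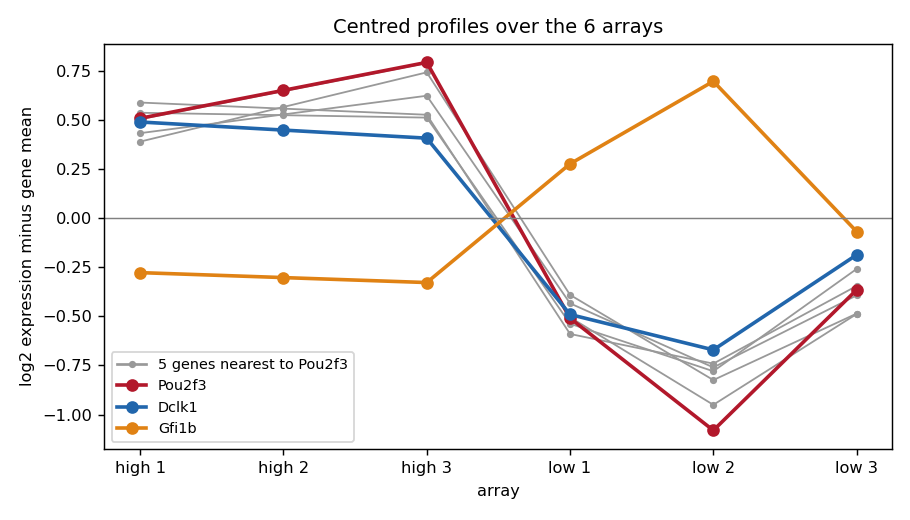
Log2 expression minus each gene's mean over the 6 arrays (y axis) for each array (x axis; EGFP-high at left, EGFP-low at right). Coloured lines are Pou2f3, Dclk1 and Gfi1b, and grey lines are the 5 genes nearest to Pou2f3. Dclk1 has its lowest value on low replicate 2, as Pou2f3 does, and Gfi1b has its highest value there.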

How the data were processed

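The 6 arrays came as log2 values of 41345 probe sets, deposited by the authors after RMA in Affymetrix Expression Console (tools from the submitters' processing notes, which carry no versions). The genome build and the annotation the authors used are not given in the sources used here, and genes were named here from GEO's platform annotation. A further table deposited by the authors covers 1134 probe sets and holds, for EGFP-high over EGFP-low, a linear ratio, beside a signed fold and an error sum of squares, both taken as scores, and blank p-values. Its name carries a limit of 1.5-fold, and of the genes followed here it holds 2, Pou2f3 and Dclk1. Gfi1b, 1.52-fold lower in the values used here, is not in it. Only its ratio was used, which comes from the same series and is no separate measurement.

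Probe sets with 1 symbol in the platform annotation (23521) were reduced to 22180 genes by the highest mean. In 1820 cases a probe set had several symbols and 16004 probe sets were unlisted, and these were not named. Names that had changed (Irag2, Loricrin, Pou2af2, Pou2af3) were looked up under the older symbol, a choice made after seeing the annotation. EGFP-high minus EGFP-low was fitted with limma 3.58.1 in R 4.3.3 (lmFit, eBayes, two-sided, Benjamini-Hochberg over all genes, threshold 0.05), with group and array set as terms. Of 201 ways to part the arrays, 1 gave the column relations. Its sets pair high 1 and low 1, join high 3 to both other EGFP-low arrays and leave high 2 by itself. No label states them. Intervals are 95% and unadjusted. No filter or further scaling was applied.

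The genes followed and the lists beside them were chosen with earlier results of these data known. Named genes were all those followed, the highest and lowest of each list, any list gene at or past 1.5-fold, a set fixed by role, the 3 measured neighbours of Pou2f3 on each side and the 5 nearest profiles. Gng13 and Ptgs1 were in the set by role and are not analysed here. Outside the rule, Gfi1, Kdm1a, the taste receptors, Dcx, Dclk2, Dclk3, Il17ra, Sox4, Trp63, Krt14, Alox12 and Trpm4 were named after their values were seen. Alternatives were the terms of the model, scaling, a filter on dim genes, the probe set rule, the variance prior and each array left out. The number of arrays limits the precision.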

Additional observations from a re-analysis of the deposited data

How the results depend on the processing

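Differences of the 8 genes other than Pou2f3 kept their sign and their side of the threshold in 100 comparisons with an alternative, turned sign in 8 and newly passed the threshold in 1. Many of the 100 were bound to keep their sign. Leaving out high replicate 2 repeats the fit as reported, and leaving out high 1 or low 1 gives the same differences. A change of model terms, of variance prior or of the dim gene filter leaves the difference itself as it was, as does testing all probe sets. Pou2f3, which has no test and was assessed by its value alone, lay between 1.02 and 1.52 and Dclk1 between 0.79 and 1.03 with each array left out in turn. The ends of the Pou2f3 range are its differences within the array sets, so the range adds nothing to those. With group as the only term limma called 1479 genes and 1 of the 8 other than Pou2f3, which was Dclk1 (adjusted p = 0.024). No label says that a replicate number marks a shared batch. The pairing could not be settled from the values, since the column relations bear on each same-numbered correlation of deviations from the group means. They fix the value for number 1. High replicate 2 has no deviation beyond rounding, so the −0.007 for number 2 says nothing on pairing. The −0.295 for number 3 is in part set by the same relations. A replicate block gave 4 called genes and 0 of the 8. Limma called 0 genes, against 1 in the fit as reported, with probe sets averaged (1337 at an unadjusted p under 0.05) or all probe sets tested (1987 at an unadjusted p under 0.05). With 1 array left out the count ran from 1 to 23, at 23 without high replicate 3 and 3 without low replicate 3, and 0 of the 8 was called in any. That 0 adds little, since leaving out high replicate 2 changes nothing and leaving out any other array leaves fewer residual degrees of freedom. Differences of Trpm5, Gnat3, Il25 and Pou2f2 turned sign. Trpm5 was 0.041 with arrays centred on their medians and 0.0226 after quantile normalization, and ran from −0.17 to 0.19 with 1 array left out. That range was −0.42 to 0.02 for Gnat3, −0.22 to 0.12 for Il25 and −0.69 to 0.15 for Pou2f2, the positive ends being without high replicate 3 except for Gnat3, where it was without replicate 1 of either population. The cause was not tested. Gfi1b kept its sign, but was short of 1.5-fold at −0.55 with arrays centred and −0.58 after quantile normalization, and ran from −0.79 to −0.41 with 1 array left out, the weakest being without low replicate 2. Gnat3, Avil and Pou2f2 fell under the filter on dim genes and have no value there. Detection was not assessed, so signal over background limits the low readings to an unknown degree.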

Other observations

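Pou2f3 was first described in epidermis, and genes of epidermal differentiation were measured beside it. Of 12 listed, 10 were measured, 0 passed the threshold in either direction and 0 reached 1.5-fold, with a median of −0.10. Loricrin (Lor), a protein of the cornified envelope, was the highest at 0.09 (95% interval −0.36 to 0.54), and the envelope precursor Sprr1b the lowest at −0.26 (−0.84 to 0.31). The basal cell factor Trp63 differed by −0.06 (−0.55 to 0.43) and the basal keratin Krt14 by 0.08 (−0.40 to 0.56).

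Relatives of the genes followed here were also read. Of 28, 0 passed the threshold, and the median was 0.05. Gnai1, an inhibitory G protein alpha subunit related to gustducin, was the highest at 0.55 (0.003 to 1.10), with 0.21 and 0.81 within the array sets. Alox15, another lipoxygenase, was the lowest at −0.71 (−1.49 to 0.08) and past 1.5-fold, and Alox12 differed by −0.49 (−1.07 to 0.09). Both had EGFP-high arrays below all EGFP-low arrays. Of the 28 relatives, arrays did not overlap for 5 higher and 6 lower genes, where all genes gave 19.3% and 13.9%. Trpm4, the closest relative of Trpm5, differed by −0.07 (−0.54 to 0.41). Steroidogenic markers of luteal and theca cells, read as a list of other ovarian cells, held the 1 gene called, Cyp11a1, at −4.74 (−5.49 to −3.99, limma adjusted p = 0.014), with Hsd3b1 at −2.76 and Star at 0.33. Oviduct markers had a median of −0.12 over 4 genes, from Foxj1 at −0.43 to Pifo at −0.08, with 0 called.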
